A study of Rattus norvegicus with 80 samples.

Results

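Wildtype rat whole mammary pads occur in 2 sets in this series, and the pads of the second set were compared with those of the first. Set 1 holds the wildtype pads whose titles carry the numbers 1 to 3, and set 2 those numbered 13 to 15. The 6 pads were chosen by tissue, genotype and title number, with no measured value, from 80 libraries in all. All 6 are wildtype tissue with no treatment named in the labels, and both sets share one tissue label, one genotype label and one extraction and library protocol. The labels do not say what distinguishes the sets, and give no strain, age, sex, stage of the estrous cycle, side or date. They do not say whether a number marks 1 animal, so the p-values measure a spread between samples, which may be partly technical. That spread was estimated over all 21 pads of the series in one fit, the pads of mutated lines included.

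The other pads serve for comparison and come from 3 Nf1-mutated lines that the labels call IF, PS and IFPS without spelling the names out. Set 1 also holds IFPS pads 4 to 6, IF pads 7 to 9 and PS pads 10 to 12. Set 2 also holds IFPS pads 16 to 18 and PS pads 19 to 21, and IF has 3 pads in set 1 alone. Each of these groups has 3 pads, which gives 21 pads in 7 groups. The study also has 36 libraries of isolated mammary epithelial cells (MECs), adipocytes and fibroblasts from the same 4 genotypes, and 23 tumors from the mutated lines.

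A whole mammary pad is a mixed tissue. Adipocytes fill most of it and store triglyceride, branching epithelial ducts of luminal and basal cells run through it, and fibroblasts lay down the collagen around the ducts. Blood and lymphatic vessels, nerves, resident leukocytes and, in rats, often a lymph node lie in the same piece of tissue, so the makeup of a piece depends on where it is cut. In whole pads, fewer cells of a type and less RNA per cell cannot be told apart.

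Each value counts reads per Ensembl rat gene identifier. None of these identifiers matched a symbol in the reference used here, so Nf1, named pathways and published marker genes were not analysed here. Identifiers are therefore grouped by the cells of this series in which they are most abundant, and levels are in CPM, counts scaled to the size of the library. Depth was 28766802 to 31579464 counts in the 3 pads of set 1 and 24178725 to 25697571 counts in those of set 2. The 10 most abundant identifiers took 10.5% to 12.6% of the counts in set 1 and 13.9% to 17.6% in set 2. All pairs of wildtype pads differed by more than counting noise, so no pair looked like repeat deposits of 1 library, which does not show that the pads came from separate animals.

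The most complete difference between the sets lay in 8 identifiers that were present in every pad of one set and nearly absent from every pad of the other, whatever the line. Present means at least 1 CPM and absent at most 0.5 CPM, a rule chosen after the data were seen. ENSRNOG00000051257 measured 125.2, 114.9 and 130.2 CPM in wildtype pads 1, 2 and 3 and 0 in pads 13, 14 and 15. Against the limit that a count of 0 over the group allows (3 counts), it was at least 2660-fold lower in set 2 (adjusted p = 5.28e-10, edgeR). ENSRNOG00000055225 measured 60.5, 59.1 and 58.0 CPM in set 1 and 0 in the 3 pads of set 2, at least 1280-fold lower. ENSRNOG00000057231 went the other way, with no count in set 1 and 147.2, 120.4 and 159.2 CPM in pads 13, 14 and 15, at least 4580-fold higher in set 2 (adjusted p = 3.04e-08, edgeR). For all 3 of these identifiers the wildtype groups did not come near each other. The PS and IFPS pads of each set had the same pattern, as the rule requires. ENSRNOG00000057231 measured 138.9 to 170.2 CPM in the PS pads of set 2 and 144.0 to 166.9 CPM in the IFPS pads of set 2. It measured 0 in all 12 pads of set 1.

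The same 8 identifiers were read in all 80 libraries, with CPM scaled over those 80 and not over the pads alone. Summed over the 2 identifiers present in set 1, the level was 137.1 to 201.3 CPM in the 12 pads of set 1 and at most 0.0598 CPM in the 9 pads of set 2. Summed over the 6 present in set 2, it was 258.9 to 342.4 CPM in the 9 pads of set 2 and at most 0.122 CPM in the 12 pads of set 1. All 36 libraries of isolated cells had the pattern of set 1, as did 13 tumors. The other tumors split into 8 with the pattern of set 2, of which 5 were IFPS and 3 PS, and 2 IFPS tumors in which neither sum passed 10 CPM. These 8 were chosen because they separate the 9 pads of set 2 from the 12 pads of set 1. The sums in pads follow from that choice, while the readings in isolated cells and tumors do not. The pattern is one that the genotype labels do not describe. All 36 libraries of isolated cells carry title numbers 1 to 12, the numbers of the set 1 pads. In the order in which the series lists the tumors, the 2 with neither pattern come first, then the 13, then the 8. Which property of the libraries goes with the pattern was not tested, and within wildtype pads it cannot be told apart from the set.

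**Figure D1:**
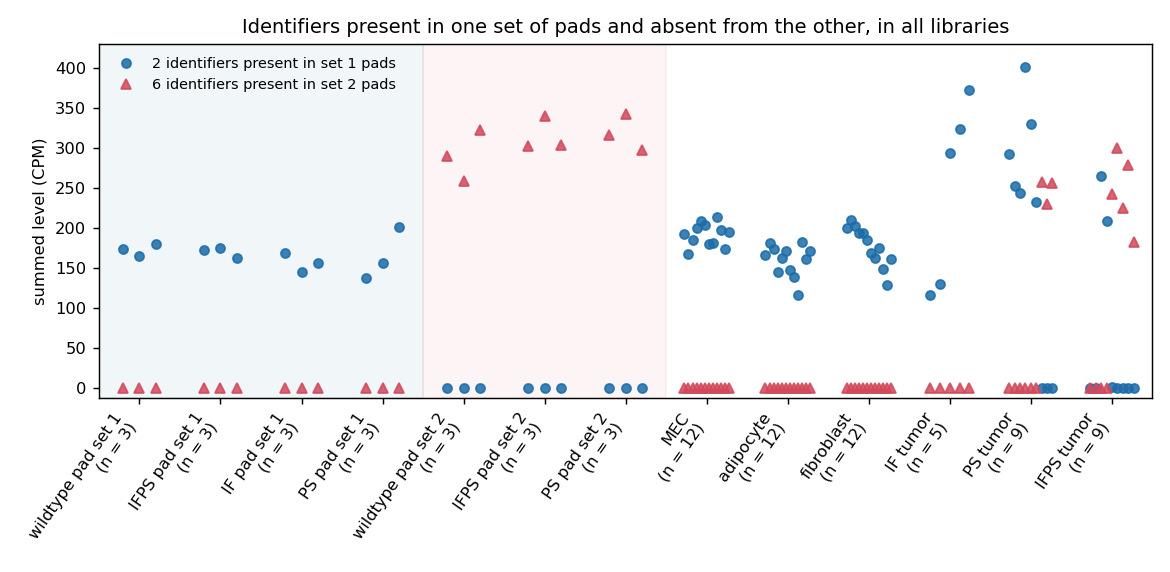
Summed CPM (linear axis) of the 2 identifiers present in set 1 pads (circles) and the 6 present in set 2 pads (triangles), 1 pair of points per library, for the 7 groups of pads, the isolated cells of all genotypes and the tumors. The 12 pads of set 1 and all 36 cell libraries have the circles high and the triangles near 0, the 9 pads of set 2 have the reverse, and the PS and IFPS tumors hold both patterns.

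Across all identifiers, 633 of 16384 tested (3.86%) differed between the wildtype sets at an adjusted p under 0.05. Of these, 372 were higher in set 2 (2.27%) and 261 were lower (1.59%). A fit of the 6 wildtype pads alone turned this balance, with 918 higher and 1078 lower, and held 488 of the 633. Most of the differences were small: 425 were under 2-fold, 208 reached 2-fold, 78 reached 4-fold and 28 reached 8-fold, by the difference of mean log2 CPM. The median log2 fold change was 0.78 among the higher and -0.68 among the lower, with a median standard error of 0.17. In 630 of the 633 the pads of the sets did not overlap, against 41.7% of all identifiers tested, 20.1% with set 2 higher and 21.6% with set 2 lower.

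That count changed widely when any 1 wildtype pad was left out, and the reason was not tested. With pad 1, 2 or 3 left out, 45, 32 and 85 identifiers passed, and with pad 13 or 14 left out, 54 and 44 passed. Without pad 15 the count was 3560, and 627 of the 633 were among them. Counts at an unadjusted p under 0.05 moved less (edgeR), from 5572 with all pads to 4398, 4002 and 4509 without pad 1, 2 or 3. They were 3069 and 3618 without pad 13 or 14 and 6860 without pad 15. Pad 15 lay between the other pads: its Spearman correlation over identifiers was 0.976 to 0.981 with the 3 pads of set 1, 0.984 with pad 14 and 0.972 with pad 13. Pads 13 and 14 correlated at 0.991 with each other and at 0.946 to 0.963 with set 1, while the pads of set 1 correlated at 0.991 to 0.993. The median SD of log2 CPM over identifiers was 0.129 in set 1 and 0.226 in set 2.

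The first principal component of the 21 pads, which held 45.7% of the variance, ordered the wildtype pads likewise. Pads 1, 2 and 3 lay at -32.1, -38.7 and -39.8, and pads 13, 14 and 15 at 88.5, 58.9 and 11.03. The 15 pads of the mutated lines covered -57.3 to 76.7, so this axis was shared by all lines and pad 13 lay at its end. TMM scaling factors followed it in the wildtype pads, at 1.04 to 1.09 in set 1 and at 0.795, 0.832 and 0.982 in pads 13, 14 and 15. The part of library composition in the count was not tested.

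**Figure D2:**
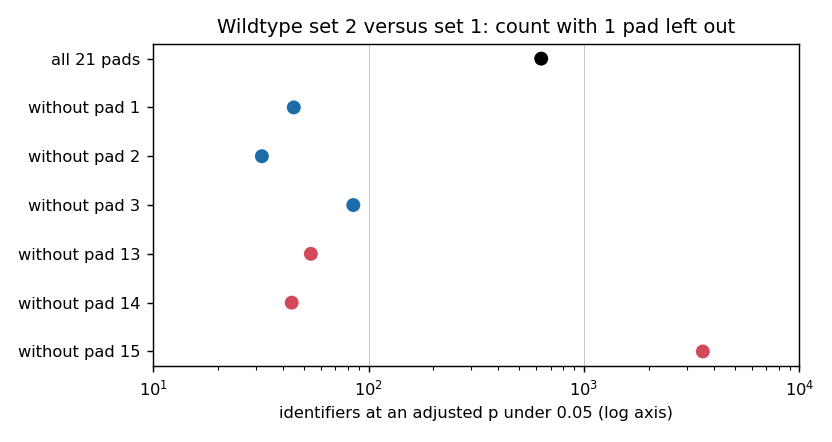
Number of identifiers at an adjusted p under 0.05 in wildtype set 2 against set 1 (log axis), with all 21 pads and with each wildtype pad left out (blue, set 1; red, set 2). The count of 633 falls to between 32 and 85 without any of pads 1, 2, 3, 13 or 14, and is 3560 without pad 15.

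A group of 25 identifiers passed the threshold with all pads and in each of the 6 fits that left out a wildtype pad, 14 higher in set 2 and 11 lower. The 8 present in one set and absent from the other were among them. Another 4 were graded but still separated all 9 pads of set 2 from all 12 pads of set 1. The remaining 13, 7 higher and 6 lower, did not separate all pads in this way. Of the 25, 20 belonged to no cell type or pad group defined here, as did 84% of all identifiers tested. This group was formed after the data were seen.

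Among the 4 graded identifiers, the one with the smallest standard error had a small difference. That identifier measured 289.5, 290.5 and 280.6 CPM in pads 1, 2 and 3 and 171.0, 169.5 and 177.4 CPM in pads 13, 14 and 15. Its log2 fold change was -0.73 ± 0.066 (SE). Its set difference was -0.44 in PS pads and -0.78 in IFPS pads, and the wildtype difference differed from that in PS (adjusted p = 0.0471, edgeR). Pad 15 lay beside pads 13 and 14 here. The shared sign, and pad 15 on the side of pads 13 and 14, follow from how the graded identifiers were chosen. The other graded identifiers had log2 fold changes of -4.40 ± 0.698, -0.93 ± 0.105 and 0.70 ± 0.112 (SE). In the last of these, pad 15 measured 153.3 CPM, against 214.4 and 211.5 CPM in pads 13 and 14.

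One adipocyte-enriched identifier of the 25 was low in the wildtype pads of set 2 and in no other of the 7 groups of pads. It measured 12.4, 13.7 and 18.9 CPM in pads 1, 2 and 3 and 0.416, 0.149 and 0.119 CPM in pads 13, 14 and 15, a log2 fold change of -6.06 ± 0.504 (SE, adjusted p = 3.34e-06, edgeR). All 15 mutated-line pads, of both sets, lay between 5.51 and 17.2 CPM. Its set difference in wildtype differed from that in PS (adjusted p = 0.000449) and from that in IFPS (adjusted p = 0.000837, edgeR). The difference from IFPS did not pass with voom (adjusted p = 0.251).

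A fibroblast-enriched identifier changed between near absence and clear presence. It measured 0.0647, 0.0611 and 0.0608 CPM in set 1 and 16.6, 13.8 and 27.0 CPM in set 2, a log2 fold change of 8.17 ± 1.16 (SE, adjusted p = 0.00296, edgeR). Mutated-line pads held both levels: IF pads measured 11.6 to 26.8 CPM and PS pads of set 1 measured 12.3 to 17.7 CPM, while IFPS pads measured 0.102 to 0.295 CPM in set 1 and 0.105 to 0.395 CPM in set 2. PS pads of set 2 spread from 0.118 to 12.3 CPM, so presence varied even within 1 group.

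**Figure D3:**
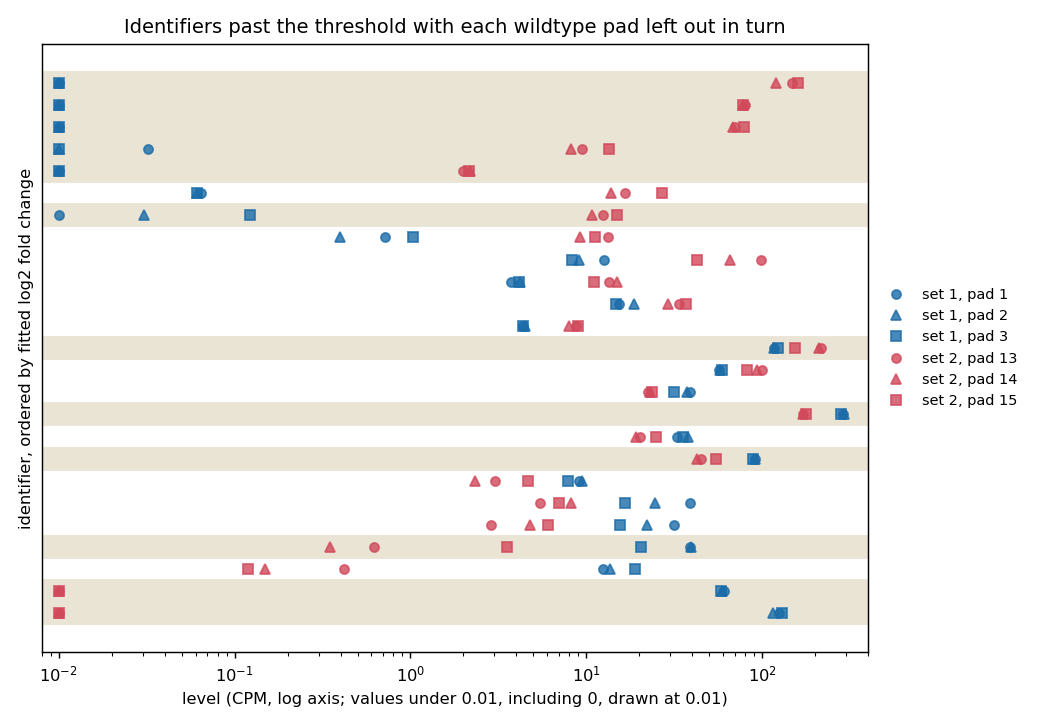
CPM (log axis, values under 0.01 drawn at 0.01) in the 3 pads of set 1 (blue) and the 3 of set 2 (red) for the 25 identifiers that passed with every wildtype pad left out in turn, ordered by fitted log2 fold change, with those that separate all pads of the sets shaded. The 8 shaded rows toward the 2 ends are the identifiers at or near 0 in one set, and the rows in the middle differ by less than 2-fold with little spread.

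The largest differences came with wide spread among the mutated-line pads. Apart from identifiers that separate the sets in all lines, 18 passed the threshold with a difference of at least 8-fold, 11 higher and 7 lower in set 2. The mean level of 2 of the 18 was below 1 CPM in both sets. In 7 of the 18 (38.9%), pads within a single mutated-line group of 3 differed by at least 8-fold, against 4.86% of all identifiers tested. All 3 IF pads lay nearer to the level of wildtype set 2 than to that of set 1 for 9 of the 18 (50%), against 9.11% of all. None of the IFPS pads of set 1 did for 13 (72.2%), against 40.6% of all. These 18 were chosen after the data were seen, by the size of the wildtype difference, so the shares are a description.

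ENSRNOG00000056747, which had the second largest fitted increase, rested on 1 pad. It measured 274.5 CPM in pad 14, from 5532 counts, but 0.312 and 0.0793 CPM in pads 13 and 15, from 6 and 2 counts, and 0 in set 1. Its adjusted p was 0.0436 with all pads and 0.206 without pad 14 (edgeR), and ranged from 0.0102 to 0.206 over 9 alternatives, of which 7 ended the call. It had no adjusted p with DESeq2, in the fit of the wildtype pads alone or with thinned counts. With scaling over all 80 libraries, where pad 14 measured 247.3 CPM, it reached 294.8 CPM in 1 MEC library against a median of 0.240 CPM over the 12.

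Cell type groups were then set side by side. Identifiers were called enriched in a cell type where they were at least 4-fold higher in wildtype cells of that type than in both others, from 9 cell libraries and no pad. MEC-enriched identifiers leaned lower in set 2: of 805 tested, 24 were lower (2.98%) and 6 higher (0.745%), against 1.59% and 2.27% of all identifiers. Their median log2 fold change was -0.34, against 0.00 for all identifiers, and 601 of the 805 were below 0. Their mean log2 CPM was 3.08, 2.86 and 2.77 in pads 1, 2 and 3 and 1.84, 2.48 and 2.88 in pads 13, 14 and 15. The sets overlapped, since pad 15 lay within the range of set 1, and pad 13 was the lowest of all 21 pads.

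The MEC-enriched identifier with the second highest CPM in MECs varied widely. It measured 1348, 192 and 335 CPM in set 1 and 18.9, 26.9 and 102.0 CPM in set 2, without overlap, but its log2 fold change of -3.66 ± 1.54 (SE) did not pass (adjusted p = 0.114, edgeR). The fitted set difference of this identifier was -4.49 in PS and -3.65 in IFPS pads on the log2 scale. The most abundant MEC-enriched identifier measured 1379, 1033 and 1022 CPM in set 1 and 585, 688 and 867 CPM in set 2 and did not pass either (adjusted p = 0.107). Of the 20 most abundant in MECs, 1 was higher in set 2 (5%) and 1 lower (5%), against 2.27% and 1.59% of all identifiers.

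Adipocyte-enriched identifiers did not move as 1 group. Of 1003 tested, 38 were higher in set 2 (3.79%) and 11 lower (1.10%), against 2.27% and 1.59% of all identifiers. The median log2 fold change of the 1003 was 0.13. Their mean log2 CPM was 4.10 ± 0.129 (SD, n = 3) in set 1 and 4.08 ± 0.0784 in set 2, with overlap. The 20 of highest CPM in adipocytes, a group formed after the data were seen, stood higher: their mean log2 CPM was 8.32, 8.42 and 8.48 in pads 1, 2 and 3 and 9.13, 9.22 and 8.78 in pads 13, 14 and 15. The pads did not overlap, and the median log2 fold change was 0.49. In set 2, 3 of the 20 were higher (15%) and none lower, against the same shares of all identifiers.

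The 3 that passed were high-abundance transcripts of adipocytes. The largest change was in the one ranked 9 in adipocytes, with 2447, 1540 and 1930 CPM in set 1 and 12700, 15740 and 5529 CPM in set 2, a log2 fold change of 2.52 ± 0.584 (SE, adjusted p = 0.0333, edgeR). Ranks 4 and 11 differed by 0.82 ± 0.185 and 0.84 ± 0.210. The top-ranked one measured 6839, 5529 and 7246 CPM in set 1 and 13060, 25430 and 9640 CPM in set 2 without passing (adjusted p = 0.156). Beside these values, the 10 most abundant identifiers of all kinds held 17.6% of the counts in pad 13, 17.3% in pad 14 and 13.9% in pad 15, and their part in the result was not tested.

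Fibroblast-enriched identifiers leaned higher: of 287 tested, 15 were higher in set 2 (5.23%) and 1 lower (0.348%), against 2.27% and 1.59% of all identifiers. The median log2 fold change of the 287 was 0.20. Their mean log2 CPM was 2.88, 2.81 and 2.99 in pads 1, 2 and 3 and 2.95, 3.02 and 3.14 in pads 13, 14 and 15, with overlap. The most abundant in fibroblasts measured 17300, 16250 and 26140 CPM in set 1 and 51310, 41370 and 34250 CPM in set 2, without overlap. Its log2 fold change of 1.09 ± 0.387 (SE) did not pass (adjusted p = 0.0794, edgeR). Of the 20 most abundant in fibroblasts, 2 were higher in set 2 (10%) and none lower, against the same shares of all identifiers.

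**Figure D4:**
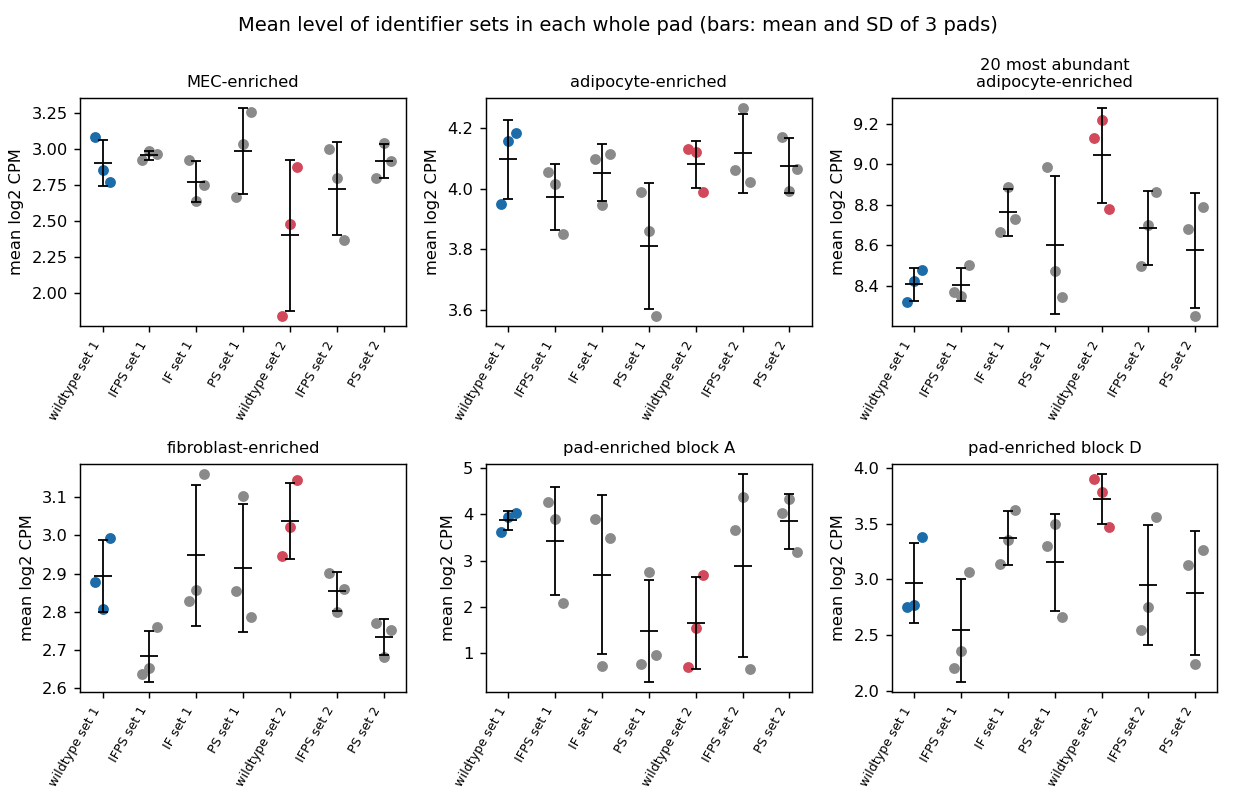
Mean log2 CPM of 6 groups of identifiers in each whole pad (points), with the mean and SD of 3 pads (bars), for wildtype set 1 (blue), wildtype set 2 (red) and the mutated lines (grey); the vertical axes differ and do not start at 0. The wildtype sets do not overlap for the 20 most abundant adipocyte-enriched identifiers, block A and block D, and overlap for the other 3 groups.

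Among the groups described here, the widest shift was in transcripts that were far more abundant in pads than in isolated cells. Such pad-enriched identifiers, 533 in number, were at least 4-fold higher in pads than in each cell type of the mutated lines. Members of the cell type groups, which come from wildtype cells, were left out. Identifiers that separate all pads of the sets, wildtype pads included, were left out too. The 533 were split, after the data were seen, into blocks that vary together over the 15 mutated-line pads. Block A, the largest with 260 identifiers, had a mean log2 CPM of 3.63, 3.95 and 4.03 in wildtype pads 1, 2 and 3 and of 0.69, 1.53 and 2.69 in pads 13, 14 and 15. Every pad of set 2 lay below set 1 by this mean, and the median log2 fold change was -2.03.

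Even so, 0 of the 260 passed the threshold (edgeR), with 142 (54.6%) lower at an unadjusted p under 0.05, against 15.4% of all identifiers, and their median standard error was 0.88. In 225 of them (86.5%) the 3 pads of set 2 lay below all 3 of set 1, against 21.6% of all identifiers. Members of the block vary together, with a median correlation of 0.979 to the block mean over the wildtype pads. They are not separate observations, and these shares are a description. The block varied as widely in the mutated lines, from 0.64 to 4.38 among the 15 pads. Its set difference in PS was opposite, from 1.48 ± 1.11 (SD, n = 3) in set 1 to 3.86 ± 0.598 in set 2, without overlap. In IFPS pads it was -0.53, with overlap. The cell types behind the block were not analysed here, since the identifiers carry no names.

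Block D, with 25 identifiers, moved the other way. Its mean log2 CPM was 2.75, 2.77 and 3.38 in pads 1, 2 and 3 and 3.90, 3.79 and 3.47 in pads 13, 14 and 15, without overlap. None of the 25 passed the threshold (edgeR). At an unadjusted p under 0.05 (edgeR), 12 (48%) were higher, against 18.6% of all identifiers. Members of this block vary together too, so that share is a description. Block C, also of 25 identifiers, was switched on in single pads: its mean log2 CPM was 2.53 and 2.78 in pads 1 and 3 but -0.35 in pad 2, and -0.38, 0.78 and -0.34 in pads 13, 14 and 15. Block B, of 62, lay at 3.08 to 3.37 in set 1 and 3.08 to 3.78 in set 2. Neither C nor B separated the wildtype sets.

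The mutated lines have the same 2 sets in libraries that the wildtype comparison does not use. PS pads gave 165 identifiers (1.01%) between sets, 38 higher in set 2 (0.232%) and 127 lower (0.775%). The count of 165 also fell in some fits with 1 PS pad left out, to 30, 31, 39 and 52 without PS pad 19, 20, 12 or 21. IFPS pads gave 26 (0.159%), 8 higher (0.0488%) and 18 lower (0.11%). With 1 IFPS pad left out IFPS gave 14 to 37, moving by over 1.5 times without pad 4 and pad 16, at 16 and 14.

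Of the 633 wildtype identifiers, 250 (39.5%) had the same sign in PS, against 35.0% of all identifiers, and 542 (85.6%) in IFPS, against 69.9% of all. Called with the same sign in the other line were 19 in PS, which is 3% of the wildtype list and 11.5% of the PS list, and 17 in IFPS, which is 2.69% and 65.4%. Without the identifiers that separate the sets in all lines, those counts were 5 in PS and 2 in IFPS, out of 607. Signs within a comparison are not independent, since identifiers vary together over the pads.

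**Figure D5:**
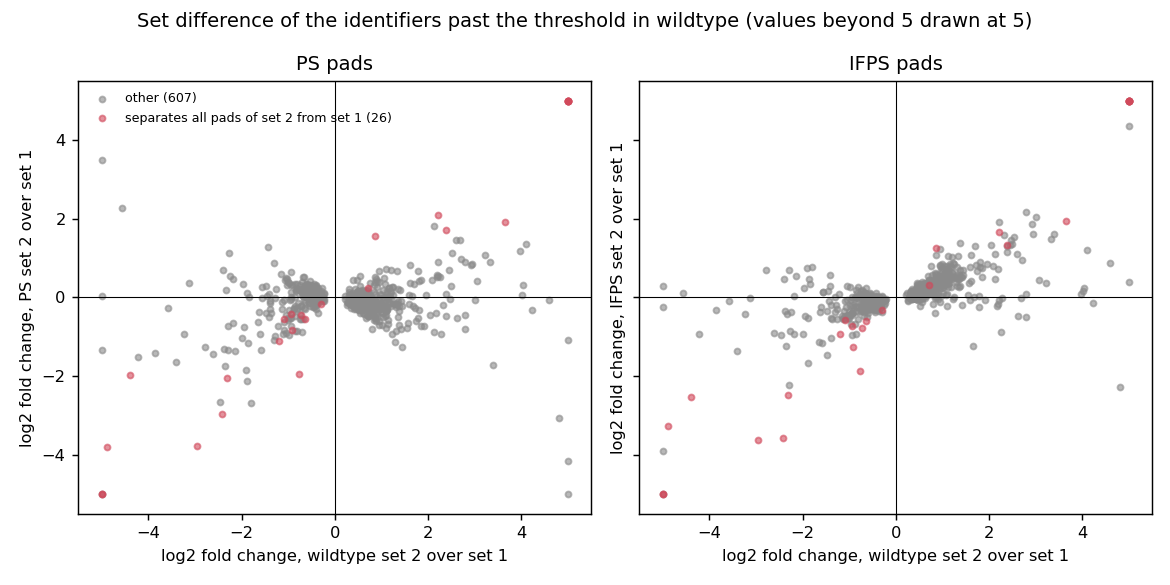
Log2 fold change of set 2 over set 1 in PS pads (left) and IFPS pads (right) against that in wildtype pads, for the 633 identifiers past the threshold in wildtype; values beyond 5 are drawn at 5. The 26 identifiers that separate all pads of the sets (red) lie along the rising diagonal in both lines, where their shared sign follows from that definition. The other 607 have the wildtype sign in 36.9% of cases in PS and 85% in IFPS.

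In all, 48 identifiers (0.293%) separated all 9 pads of set 2 from all 12 of set 1, 14 higher and 34 lower. The wildtype test called 26 of them, 11 higher and 15 lower. The 40 that were not present in one set and absent from the other had a median set difference, regardless of sign, of 0.91 on the log2 scale in the wildtype pads. The same median was 1.42 for PS and 1.25 for IFPS. Their choice used the wildtype pads, so these values are a description.

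The difference between lines was tested directly. For 2130 identifiers (13%) the set difference in wildtype differed from that in PS. Of these, 919 were above 0 in wildtype and below in PS, 1169 the reverse, and 42 had the same sign. The difference was positive, wildtype over PS, for 951 (5.8%) and negative for 1179 (7.2%). Block A held 137 of them, 52.7% of the block, all relatively lower in wildtype. The block was formed over mutated-line pads that include the PS pads, and its identifiers vary together. The 137 are therefore not separate observations, and their share is a description. The count of 2130 also changed widely with single pads left out. It was 8, 3, 5, 9 and 5 without wildtype pad 1, 2, 3, 13 or 14 and 4328 without pad 15. It was 145, 7, 22 and 5 without PS pad 10, 12, 19 or 20. At an unadjusted p under 0.05 the count was 6025 with all pads (edgeR). That count was 4659 to 5354 without wildtype pad 1, 2, 3, 13 or 14 and 7030 without pad 15. Without PS pad 10, 12, 19 or 20 it was 4315 to 6261. Between wildtype and IFPS, 1 identifier passed (0.0061%), the adipocyte-enriched one above, which did not pass with voom, and 1378 had an unadjusted p under 0.05 (edgeR).

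The choice of wildtype set also bears on a comparison with IF, whose pads are all in set 1; both comparisons share the 3 IF pads. Against wildtype set 1, 1 identifier differed (0.0061%), higher in IF. It is the fibroblast-enriched identifier above, at 11.6 to 26.8 CPM in IF pads, with a log2 fold change of 8.33 over set 1 (adjusted p = 0.033, edgeR) and of 0.17 over set 2 (adjusted p = 0.918). With voom this identifier did not pass (adjusted p = 0.242). The count fell to 0 when wildtype pad 1, 2 or 3 or IF pad 8 or 9 was left out. Against wildtype set 2, 32 differed (0.195%), 16 (0.0977%) in each direction, and 18 of these separate the sets in all lines, among them all 8 that are present in one set and absent from the other. Those 18 were chosen with the IF pads on one side and the wildtype pads of set 2 on the other. That these pads do not overlap for them follows from the choice, and 0.293% of all identifiers tested separate the sets. Without IF pad 7 or 8 the count of 32 fell to 12 and 19, and without wildtype pad 13 or 14 it was 16. For this comparison line and set cannot be told apart.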

How the data were processed

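RNA of 80 rat libraries, among them 21 whole pads, was sequenced from mRNA libraries with 50 bp paired-end reads, per the labels' protocols. The deposited table holds raw counts for 32883 Ensembl identifiers, and the counts were used as the authors deposited them. Trim Galore, STAR 2.5.2b and the build Rnor 6.0 stand in the submitters' processing notes. The counting tool, its annotation and its use of strand are not given in the sources used here, so identifiers that share reads with a copy, an overlapping or an antisense gene are uncertain.

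Groups came from tissue, genotype and title number. The 21 pads entered 1 quasi-likelihood fit with 7 groups (edgeR 4.0.16 under R 4.3.3, TMM, filterByExpr, Benjamini-Hochberg over 16384 identifiers, threshold 0.05). It gave each contrast, including the differences between lines. CPM used TMM library sizes over the 21 pads, or over all 80 libraries where isolated cells or tumors were read, and log2 CPM a prior count of 2. Group means of log2 CPM were not tested. Depth over all libraries was 17344717 to 37293141 counts, and intervals and limits cover counting error alone. The code was checked on simulated data.

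Of the identifiers 0 matched a symbol, so the fixed marker and gene lists were not analysed. The rule for named genes then asked for 2 identifiers that rose and 2 that fell: past the threshold, without overlap, at least 1 CPM on average, with the largest fold change. Members and lists were chosen with earlier results of these data known. The pad blocks, the groups of 20 most abundant identifiers, the identifiers that separate the sets and those of large change were formed after the data were seen. Alternatives were RLE size factors, no filter, DESeq2 1.42.0, a fit of the groups compared, counts thinned to the shallowest pad, leaving out each pad and, added after the data were seen, limma 3.58.1 voom with group weights.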

Additional observations from a re-analysis of the deposited data

Results flagged for a closer look

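The set difference in wildtype pads differed from that in PS pads for 2130 identifiers by the test of the difference (edgeR), and from that in IFPS pads for 1. The mean of all pad-enriched identifiers was lower in set 2 than in set 1 in wildtype, by -1.14 on the log2 scale, and that of block A by -2.23, while every PS pad of set 2 lay above every PS pad of set 1 for both. For these means the difference between lines was not tested.

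Among the tumors, which enter no comparison here, 8 had the pattern of set 2 in the 8 identifiers present in one set of pads and absent from the other. ENSRNOG00000057231, one of these 8 identifiers, was at 0.0526 CPM in 1 IF tumor, far from the other 4 of that group, which is a level near that of 1 count.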

How the results depend on the processing

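The counts of identifiers depended on the method and on single pads more than on the scaling. With RLE size factors and with counts thinned to the shallowest pad, the counts in the report stayed within 1.5 times, except that IF against wildtype set 1 gave 3 when thinned. Without the low-count filter the wildtype comparison gave 277, PS 100 and the difference between wildtype and PS 1134. DESeq2 gave 3016 for wildtype, 847 for PS, 139 for IFPS, 3787 and 27 for the differences of wildtype from PS and IFPS, and 39 and 233 for IF against wildtype sets 1 and 2. A fit of the groups compared alone gave, in the same order, 1996, 22, 16, 3228, 4, 5 and 14. In that fit 46.0% of the wildtype calls were higher in set 2, against 58.8% in the fit of all pads. Voom with group weights gave 2111 for wildtype (67.9% higher), 17 for IFPS, 0 for the difference from IFPS (1113 at an unadjusted p under 0.05), and 10 and 15 for IF against sets 1 and 2; the 1 identifier reported for set 1 was not among the 10. The cause of these shifts was not tested.

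With each pad left out in turn, the count ranged from 32 to 3560 for wildtype, 30 to 212 for PS, 14 to 37 for IFPS, 3 to 4328 for the difference from PS, 1 to 2 for the difference from IFPS, 0 to 1 for IF against set 1 and 12 to 40 against set 2. The mean log2 CPM of MEC-enriched identifiers differed between the wildtype sets by -0.74 to -0.23, that of block A by -2.76 to -1.76 and that of the 20 most abundant adipocyte-enriched identifiers by 0.55 to 0.77. ENSRNOG00000057231, ENSRNOG00000051257 and ENSRNOG00000055225 passed in all 12 alternatives, with adjusted p up to 0.000672 (edgeR, DESeq2 and limma). No paired analysis was possible because the pads of sets 1 and 2 share no number in the labels. Depth limits identifiers at few counts, where levels under 0.1 CPM rest on 1 to 3 counts.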
